A study of Mus musculus with 4 samples.

Results

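Ly6c1, Ly6c2, Ly6a and Ly6e are 4 of the 14721 genes in a single-cell count table of mouse T cells from B16 melanomas and lymph nodes. They were picked by name, with an earlier reading of the same table in view in which Ly6c1 and Ly6c2 followed opposite T cell lineages. The levels of those genes by label are therefore a description here and carry no test. Ly6 proteins are small surface proteins that are tied to the outer leaflet of the membrane by a glycosylphosphatidylinositol (GPI) lipid anchor rather than by a transmembrane segment. In mouse T cells Ly6C, encoded by Ly6c1 and the neighbouring copy Ly6c2, is known as a marker of memory and effector CD8 cells and of part of the CD4 cells, and Ly6C is also the classical marker of inflammatory monocytes. Ly6a encodes Sca-1, known from blood stem cells and from activated T cells, and Ly6e encodes a further member of the family. Ly6a and Ly6e are both known to be raised by interferon.

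The 4 samples were 1 gene expression library and 1 receptor (VDJ) library from each of the tumor and the lymph node. B16F10 melanoma, a mouse skin tumor line, was grown under the skin. The hosts were given cyclophosphamide, a drug that depletes lymphocytes, once at 250 mg/kg, and were then given TRP1 CD4+ T cells, which carry 1 transgenic receptor against a melanocyte antigen and the CD45.1 marker. Tissue was taken 11 days after the transfer. All 4 samples carry the strain label RAG1- BW TRP-1 TCR (a receptor-transgenic background lacking Rag1), the treatment label untreated although the protocol includes cyclophosphamide, and the same sort of CD4+ and CD4+CD8+ cells. The sample names call the tumor cells transgenic and endogenous and the lymph node cells endogenous. The sources used here give neither the number of animals pooled nor their age.

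Cells were grouped by the authors' labels, of which what "Tdp" stands for is not spelled out. In the tumor, where a transgenic receptor chain was called in 5540 of 5570 cells, the groups were the labelled cells with such a chain: 2682 Tdp, 2435 Cd4 and 403 Tcell cells. In the lymph node no cell had one, although receptors were called in 4769 of 4988 cells, and the groups were 2788 Cd8, 1873 Cd4 and 321 Treg cells. Read as naming the lymph node cells, the strain label with its transgenic receptor goes against these calls. T cell markers were high in all 6 groups, and Foxp3, which defines regulatory T cells, was at 394 CPM in the Treg group and at no more than 3.56 CPM in the others (CPM, counts per 1000000, is the UMIs of a gene per 1000000 UMIs of the group, a UMI being 1 tagged molecule). The lymph node Cd8 cells go against the stated sort, since Cd4 was seen in 4.59% of them, against 50.7% of lymph node Cd4 and 84.6% of tumor Cd4 cells. The libraries held 33147030 tumor and 29067001 lymph node UMIs, with medians of 5862.5 and 5596.5 per cell, and 36 cell barcodes occurred in both. With 1 library per tissue there is no replicate and no test. All intervals below are 95% intervals for counting error within a library and say nothing of how animals vary.

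The 4 genes lie close together on chromosome 15, in the RefSeq table of build GRCm38.p6 (the primary assembly of mm10): Ly6e at 74955025 to 74959904, Ly6a at 74994877 to 74998031, Ly6c1 at 75044018 to 75048920 and Ly6c2 at 75108161 to 75112066. The gaps between them are 34972, 45986 and 59240 bases, and other genes in these gaps were not looked for. All 4 fall within 157042 bases. The stretches just upstream of Ly6c1 and Ly6c2 are shown because these neighbouring copies were used by different cells. Both are read on the minus strand, outside the annotated gene, from chr15:75048921-75049087 for Ly6c1 and chr15:75112067-75112221 for Ly6c2. Lower case marks bases that are paired and identical between the copies or lie outside the alignment, and capitals mark bases that differ or have no partner.
Ly6c1: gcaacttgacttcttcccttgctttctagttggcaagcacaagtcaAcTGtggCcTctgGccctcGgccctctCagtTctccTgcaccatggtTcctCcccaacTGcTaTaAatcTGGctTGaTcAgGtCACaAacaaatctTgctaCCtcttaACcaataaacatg
Ly6c2: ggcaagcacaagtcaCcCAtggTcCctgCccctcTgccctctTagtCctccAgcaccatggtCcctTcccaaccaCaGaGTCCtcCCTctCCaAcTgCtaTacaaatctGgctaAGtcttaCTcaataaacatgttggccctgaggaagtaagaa
Of 130 aligned pairs, 102 (78.5%) were identical, 28 differed, and 6 bases of Ly6c1 and 4 of Ly6c2 had no partner. The 250 bases before each annotated start were searched on both strands for 4 motifs. TGTGGT, the core letters of the RUNX factors that take part in CD8 lineage choice, were found in both overlapping Ly6c2 entries and in neither Ly6c1 entry. In the printed Ly6c2 stretch they lie at bases 72 to 77, counted from its 5′ end and read on the other strand. These letters occur in 14.0% of 32851 mouse promoters of that length. Neither gene held the interferon-stimulated response element searched as GAAA, NN and GAAA in a row (2.98% of promoters), the gamma-activated site TTCNNNGAA (7.02%) or the T-box letters AGGT followed by GTGA (1.12%). A match of letters is not a bound site, and a missing one says nothing of the factor.

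Ly6c1 was a transcript of lymph node Cd4 cells. Its level there was 342.9 CPM (330.9 to 355.2), and 55.8% of these cells held at least 1 Ly6c1 UMI. It was at 78.3 CPM in lymph node Treg cells and at 10.2 CPM in lymph node Cd8 cells. In the tumor it was near the bottom of the scale, at 6.19 CPM in Cd4 cells, 3.57 CPM in Tdp cells and 1.19 CPM in Tcell cells. The last value is a single UMI, and the intervals of the Tdp and Tcell groups overlap, whereas no other neighbouring intervals do. These intervals treat UMIs as independent, but 44 of the 86 Ly6c1 UMIs of tumor Cd4 cells were in 8 cells. By share of cells with a UMI, Tdp cells, at 2.39%, were above tumor Cd4 cells, at 1.81%. The order of the Tdp and tumor Cd4 groups is therefore not read.

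Ly6c2 was lowest in lymph node Cd4 and Treg cells, the groups highest in Ly6c1, but otherwise did not follow the reverse order. It was highest in tumor Tdp cells, at 2738 CPM (2714 to 2762), where 98.8% of cells held a UMI and the median such cell held 16. Lymph node Cd8 cells followed at 1118 CPM with 73.6% of cells, then tumor Cd4 cells at 828 CPM with 61.2% and tumor Tcell cells at 711 CPM with 52.4%. Lymph node Treg cells had 89.3 CPM, and lymph node Cd4 cells, the group richest in Ly6c1, had 14.2 CPM (11.9 to 16.9) with 4.27% of cells. No neighbouring intervals in this order overlap.

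The lowest of these shares lie near those of transcripts that the cells should lack. In lymph node Cd4 cells (median depth 4763 UMIs) Cd8b1 and Cd8a, which encode the CD8 chains, were seen in 9.77% and 1.39% of cells, and the Ly6c2 share of 4.27% lies between them. Of its 128 UMIs there, 50 were in 10 cells with 3 or more, and whether these cells express Ly6c2 was not tested. In lymph node Cd8 cells (median depth 6306 UMIs) Cd4 was seen in 4.59% and Ly6c1 in 3.05%, but 24 cells with 3 or more Ly6c1 UMIs held 117 of the 185. In tumor Cd4 cells (median depth 5544 UMIs) Cd8b1 was seen in 9.90%, Cd8a in 2.83% and Ly6c1 in 1.81%.

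Ly6a was a tumor transcript first and a lymph node transcript second. Its levels were 1928 CPM in tumor Cd4 cells, 1540 CPM in Tdp cells and 1027 CPM in tumor Tcell cells, against 833 CPM in lymph node Treg, 588 CPM in lymph node Cd4 and 346 CPM in lymph node Cd8 cells. Every tumor group was thus above every lymph node group in CPM. Totals without receptor, mitochondrial and ribosomal protein genes lowered the log2 ratio of tumor over lymph node Cd4 cells from 1.71 to 1.40. Whether the closest groups, Tcell and lymph node Treg cells, keep their order with such totals was not tested. The share of cells with a UMI ran from 98.5% in tumor Cd4 cells to 62.6% in lymph node Cd8 cells. By share the shallow Tcell group, at 77.9%, was below lymph node Cd4 cells at 79.0%. At 2000 UMIs per cell these were 81.0% and 59.0%. Within each tissue the Cd4 cells were above the Tdp or Cd8 cells.

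Ly6e was the most even of the 4. It was highest in lymph node Treg cells at 2067 CPM and lowest in tumor Tcell cells at 912 CPM. Tumor Cd4 cells had 1889 CPM, Tdp cells 1479 CPM, lymph node Cd4 cells 1306 CPM and lymph node Cd8 cells 1256 CPM. At least 95% of cells in 5 of the 6 groups had a Ly6e UMI. The exception was the Tcell group at 78.7%, with a median depth of 2049 UMIs. At 2000 UMIs per cell that group was still the lowest, at 79.7% against 87.9% to 95.8% in the others.

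**Figure D1:**
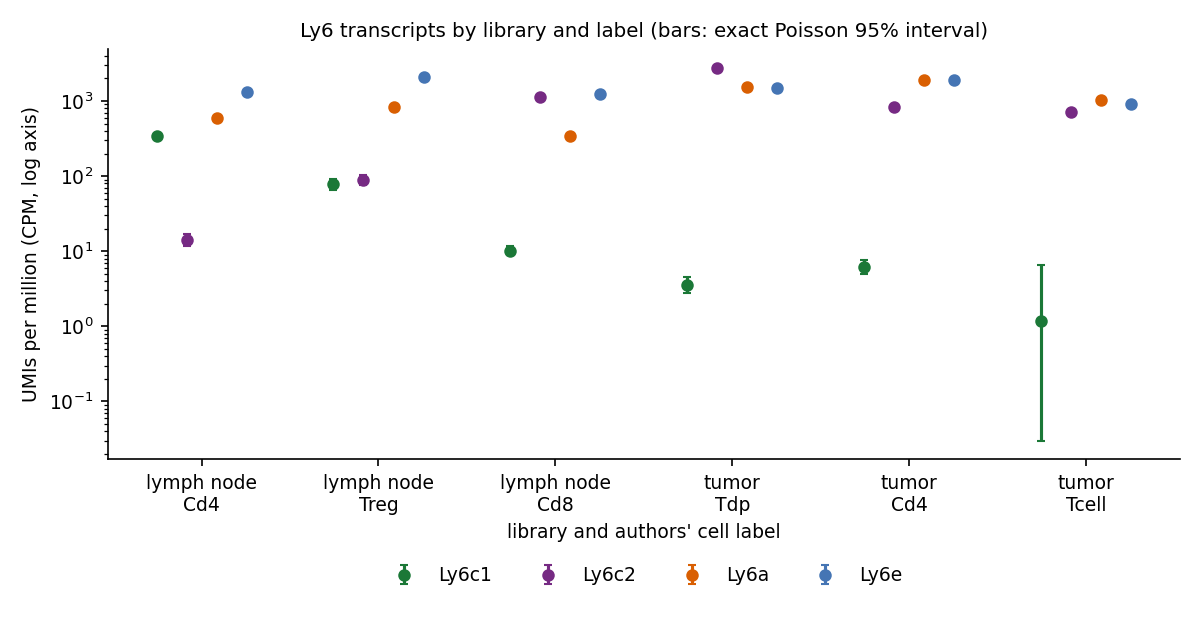
Level of each gene in CPM (log axis) in the 6 labelled groups of at least 50 cells; points are summed over the cells of a group in 1 library and bars are exact Poisson 95% intervals. Ly6c1 falls from 342.9 in lymph node Cd4 cells to 3.57 in tumor Tdp cells while Ly6c2 goes from 14.2 to 2738, and Ly6e stays between 912 and 2067.

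Labelled groups below 50 cells are given as values alone. The 19 tumor Treg cells had 135 CPM of Ly6c1 from 12 UMIs in 4 cells, 124 CPM of Ly6c2 from 11 UMIs in 1 cell, 3412 CPM of Ly6a and 2838 CPM of Ly6e. The 6 lymph node cells labelled Tdp had 1228 CPM of Ly6c2 and no Ly6c1 UMI, and no Cd4 UMI either. The single tumor cell labelled Cd8 held 8 Ly6c2 UMIs.

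In the lymph node, Cd8 cells used Ly6c2 and Cd4 cells used Ly6c1. The log2 ratio of Cd8 over Cd4 cells was 6.30 for Ly6c2 (6.04 to 6.56, or 78.6-fold higher) and -5.07 for Ly6c1 (-5.29 to -4.86, or 33.6-fold lower). A gene was called when it had 20 CPM in either group and changed by 2-fold after 1 CPM was added to both. By that rule 1 of the 4 members was higher, beside 2.12% of all 4530 genes, and 1 was lower, beside 1.43%. The members were chosen on this contrast, so nothing is read from these counts. Ly6a was 0.76 lower on the log2 scale in Cd8 cells and Ly6e was at -0.06, and neither was called.

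A small set of lymph node Cd8 cells held much of that group's Ly6c1. The 57 cells with both Cd4 and Cd8 UMIs had 78 of the 185 Ly6c1 UMIs, or 146 CPM against 5.85 CPM in the 2607 cells with Cd8 UMIs alone, and their median depth was 9794 UMIs. When the 5% deepest cells of each library were left out, the log2 ratio of Ly6c1 moved from -5.07 to -5.99. The part of cell pairs sharing a droplet in this was not tested. The 71 lymph node cells that were labelled Cd8 but held Cd4 and no Cd8 UMIs were low in Ly6c2, at 28.6 CPM against 1167 CPM, and high in Ly6a, at 871 CPM against 327 CPM.

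In the tumor, Ly6c2 was the paralog seen in both the Tdp and the Cd4 cells and was higher in the Tdp cells. Both groups carry a transgenic receptor chain, and Cd4 was seen in 78.5% of Tdp cells. The ratio of Tdp over tumor Cd4 cells was 1.73 on the log2 scale for Ly6c2 (1.70 to 1.75, or 3.31-fold higher). It was the only member called, beside 1.18% of all 4817 genes called higher and 2.33% called lower. Ly6a was 0.32 lower and Ly6e 0.35 lower in Tdp cells, against a median of -0.11 over all genes. Ly6c1 was at -0.79 (-1.28 to -0.31) from only 65 and 86 UMIs, stayed below 20 CPM in both groups, and was at -0.071 when the groups were drawn from coreceptor UMIs instead of labels. Over all genes, 57 were called higher and 112 lower, and with edgeR's TMM scaling, which moves every ratio in this comparison by 0.12, these became 72 and 92.

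Tumor Cd4 cells held the paralog that lymph node Cd4 cells nearly lacked, and the reverse. Ly6c1 was 55.4-fold lower in tumor Cd4 cells (log2 ratio -5.79, -6.12 to -5.48) and Ly6c2 was 58.2-fold higher (5.86, 5.61 to 6.13). Ly6a was 3.28-fold higher, while Ly6e, at a log2 ratio of 0.53, was not called. Thus 2 members were called higher, beside 14.8% of all 5137 genes, and 1 lower, beside 6.27%. The transferred tumor cells and the endogenous lymph node cells differ in origin, receptor, tissue and library, which cannot be told apart. Ribosomal protein genes took 29.3% of the UMIs of the tumor and 43.3% of those of the lymph node. With these, receptor and mitochondrial genes out of the totals, the ratios were 1.40 for Ly6a and 0.22 for Ly6e.

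Tdp cells against lymph node Cd8 cells, both rich in Cd8 transcripts, differed most in Ly6a. It was 4.45-fold higher in Tdp cells (log2 ratio 2.15, 2.12 to 2.19), and Ly6c2 was 2.45-fold higher (1.29, 1.27 to 1.32). These 2 members were called higher, beside 11.4% of all 4835 genes, and none was called lower, beside 5.15%. Ly6e was at 0.24, and Ly6c1, under 20 CPM in both, at -1.51. Over whole libraries, Ly6c2 and Ly6a were called higher in the tumor, beside 11.5% of 4978 genes, at 2.65-fold and 3.75-fold, and Ly6c1 was called lower, beside 5.18%, at 23.1-fold. The comparisons with lymph node cells share libraries and are not independent of each other.

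**Figure D2:**
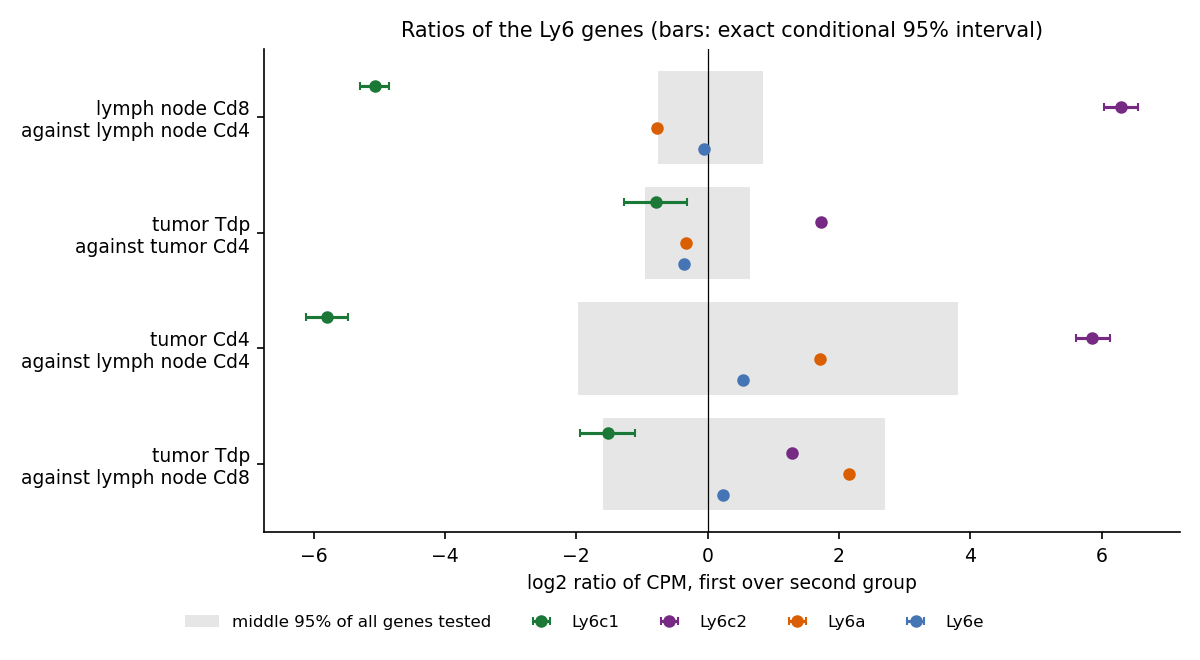
Log2 ratio of CPM, first over second group, for each gene in 4 comparisons; points are the ratios, thin bars their exact conditional 95% intervals and grey boxes the middle 95% of all genes tested. Ly6c1 and Ly6c2 lie far outside the box on opposite sides at -5.07 and 6.30 in the lymph node and at -5.79 and 5.86 between the Cd4 groups, while Ly6e lies inside each box.

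Few cells held UMIs of both paralogs. In lymph node Cd4 cells, 52.9% held Ly6c1 UMIs alone, 1.33% Ly6c2 alone, 2.94% both and 42.9% neither. In lymph node Cd8 cells, 71.0% held Ly6c2 alone, 0.430% Ly6c1 alone and 2.62% both. Treg cells of the lymph node were mostly empty of both (74.5%), with 15.0% holding Ly6c1 alone and 8.10% Ly6c2 alone. In the tumor, 96.4% of Tdp cells and 59.5% of Cd4 cells held Ly6c2 alone, and Ly6c1 alone was found in 0 of 2682 Tdp cells and in 2 of 2435 Cd4 cells. Ly6c1 was not rarer in cells with Ly6c2, however. It was seen in 68.75% of lymph node Cd4 cells with Ly6c2 against 55.2% of those without. In lymph node Cd8 cells it was 3.56% against 1.63%, and the part of depth was not tested.

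Detection rises with depth, so the shares were also computed for 2000 UMIs per cell, leaving out the shallower cells (30 Tdp, 32 tumor Cd4, 189 Tcell, 62 lymph node Cd4, 12 Treg and 26 lymph node Cd8 cells). At that depth 37.4% of lymph node Cd4 cells held Ly6c1 alone and 1.06% both, and 62.3% of lymph node Cd8 cells held Ly6c2 alone. Tdp cells with Ly6c2 alone were 94.7%, tumor Cd4 cells 48.6% and tumor Tcell cells 65.4%. The order of the Tcell and tumor Cd4 groups by this share is the reverse of their order by CPM, so no order is read from it.

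**Figure D3:**
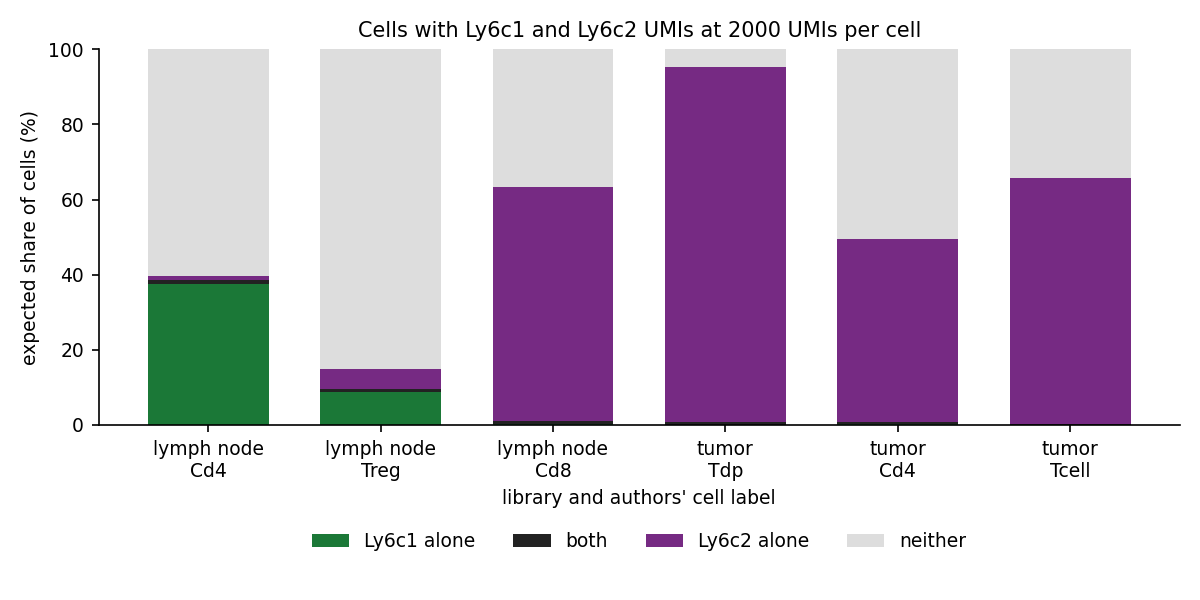
Expected share of cells, in percent, with UMIs of Ly6c1 alone, both genes, Ly6c2 alone or neither when each cell is thinned to 2000 UMIs, by labelled group. Ly6c1 alone makes up 37.4% of lymph node Cd4 cells, Ly6c2 alone 94.7% of tumor Tdp cells, and the black segment for both is at most 1.06% in any group.

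In tumor Tdp, tumor Cd4 and lymph node Cd8 cells the share of cells with a Ly6c1 UMI was higher where Ly6c2 UMIs were more numerous. Among Tdp cells, Ly6c1 was seen in 0 of 33 cells without Ly6c2 (which allows up to 9.09%) and in 4.06% of the 1060 cells with 20 or more Ly6c2 UMIs. Among tumor Cd4 cells the share went from 0.212% of 944 cells without Ly6c2 to 7.94% of 126 cells with 20 or more, although 19 of the 44 Ly6c1-bearing cells had fewer than 10 Ly6c2 UMIs. Among lymph node Cd8 cells the share went from 1.63% of 735 cells without Ly6c2 to 6.58% of 228 cells with 20 or more. Among lymph node Cd4 cells it was 55.2% of 1793 cells without Ly6c2 and 71.1% of 76 cells with 1 to 4. The 4 tumor Treg cells with Ly6c1 held no Ly6c2. Median depth rose along these bins as well, from 3923 to 7749.5 UMIs in Tdp cells and from 5138 to 7357 in tumor Cd4 cells. In lymph node Cd8 cells it rose from 5352 to 7887.5 UMIs. For every 100 Ly6c2 UMIs there were 0.131 Ly6c1 UMIs in Tdp cells, 0.748 in tumor Cd4 cells and 0.913 in lymph node Cd8 cells. The sources used here do not give how reads that match both near-identical copies were counted, and the part of misassigned reads in these small counts was not tested. The tumor Cd4 group differed from the Tdp group in having 8 cells with 3 or more Ly6c1 UMIs, which held 44 of its 86, whereas no Tdp cell had 3.

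Ly6c2 varied with coreceptor transcripts within each tumor label. In Tdp cells it was 2788 CPM in the 2022 cells with both Cd4 and Cd8 UMIs, 2659 CPM in the 551 with Cd8 alone and 1950 CPM in the 84 with Cd4 alone. In tumor Cd4 cells it was 1242 CPM in the 222 cells with both and 760 CPM in the 1837 with Cd4 alone. Even the Tdp cells in which no Cd8 UMI was seen were thus above the tumor Cd4 cells with both. Cells with both were also deeper, with medians of 6905 UMIs in Tdp and 6459 UMIs in tumor Cd4 cells against 5383 and 5606 UMIs in those with Cd4 alone, and the part of depth was not tested. Ly6a went the other way, from 1526 CPM in double-positive to 2460 CPM in Cd4-only Tdp cells and from 1735 CPM to 1981 CPM in tumor Cd4 cells.

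Within tumor Cd4 cells, Ly6c2 was higher in cells with Gzmb or Cd8a and lower in cells with Ccr8 or Il21. Among cells with at least 2000 UMIs, its mean level per cell was 1111 CPM in the 1144 cells with Gzmb, the killer protease granzyme B, and 465 CPM in the 1259 without. It was 1549 CPM in the 69 cells with Cd8a, whose median depth was 8120 UMIs, and 750 CPM in the rest (5531 UMIs). It was lower in cells with Ccr8, a chemokine receptor, at 521 against 857 CPM, and in cells with Il21, a helper cytokine, at 640 against 788 CPM. Ly6a and Ly6e differed by at most 1.09-fold for Gzmb, Ccr8 and Il21, whereas in the Cd8a split Ly6a was lower, at 1423 against 1938 CPM, and so was Ly6e, at 1411 against 1900 CPM.

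The few Ly6c1 UMIs of tumor Cd4 cells were denser where Tcf7, a factor of naive and stem-like T cells, was seen: 22.3 CPM in 160 cells against 4.21 CPM in 2243. At 2000 UMIs per cell the shares of cells with Ly6c1 were 2.63% and 0.678%. In the whole group 8 cells held 44 of the 86 Ly6c1 UMIs, with up to 15 in a cell. The gap can thus rest on very few cells and is a description only. Ly6c2 in the same split was 638 against 782 CPM. In Tdp cells Ly6c2 differed by at most 1.11-fold with any of the 6 genes used. It was 2917 against 2631 CPM for Gzma, 2761 against 2532 CPM for Havcr2, the checkpoint receptor TIM-3, and 2661 CPM on both sides for Mki67, a marker of dividing cells.

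In lymph node Cd8 cells Ly6c2 was higher in cells with Eomes, Cxcr3 or Il2rb, but not with Cd44. It was 1401 CPM in the 609 cells with Eomes, a memory transcription factor, against 976 CPM, 1325 against 1005 CPM for the chemokine receptor gene Cxcr3 and 1183 against 917 CPM for Il2rb, a subunit of the interleukin-15 receptor. Cd44 made no such difference, at 1058 against 1072 CPM. Cells with each of these genes were deeper, for example 7155 against 6128 UMIs for Eomes, and the part of depth was not tested.

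Ly6c1 in lymph node Cd4 cells was lower in cells with Cd44, a gene of antigen-experienced cells: 213 CPM in 69 cells against 350 CPM in 1742. The 8 cells with S100a4, an effector gene, had 13.0 CPM and the 6 with Cxcr3 had no Ly6c1 UMI, both against about 346 CPM in the rest (346.7 and 346.3). With so few cells these last values are a description only.

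**Figure D4:**
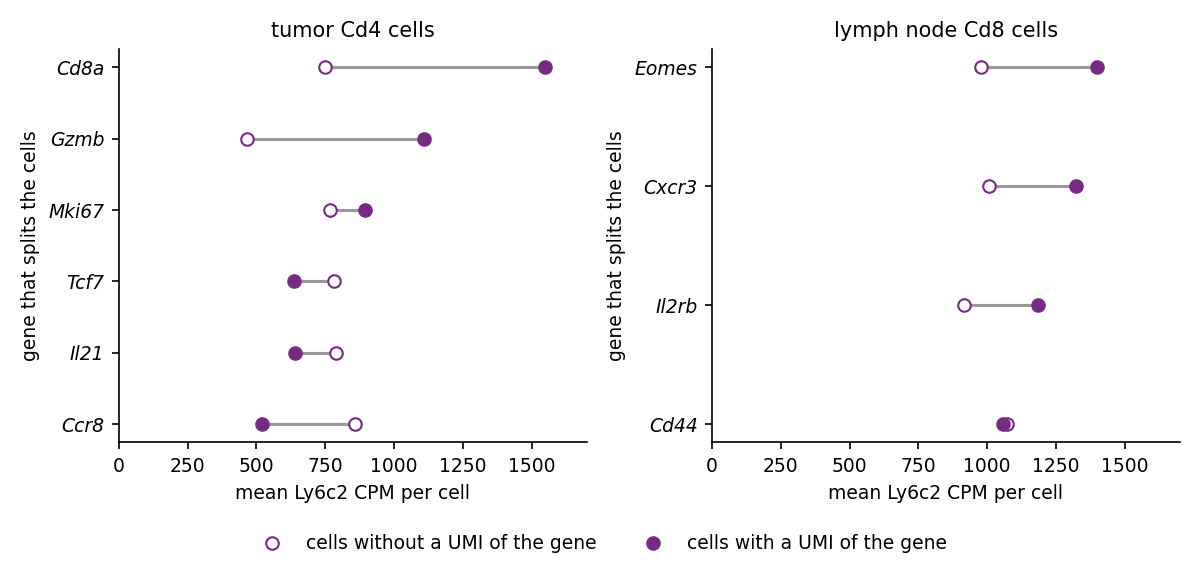
Mean Ly6c2 CPM per cell in tumor Cd4 cells (left) and lymph node Cd8 cells (right) with at least 2000 UMIs, for cells with (filled) and without (open) a UMI of the gene named on the vertical axis. The widest gaps are for Cd8a (1549 against 750) and Gzmb (1111 against 465) in tumor Cd4 cells and Eomes (1401 against 976) in lymph node Cd8 cells.

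Turned around, the cells of a label were split by the member itself and compared over all genes, a choice made after these data were seen. The 1491 tumor Cd4 cells with Ly6c2 were higher than the 944 without in Cd8b1 (56.5 against 14.4 CPM), Gzmb (625 against 253 CPM) and, under 2-fold, the inhibitory lectin gene Klrc1 (478 against 274 CPM). They were lower in Tnfsf8 (35.8 against 85.0 CPM) and Tnfsf11 (85.5 against 188 CPM), TNF family ligands, and in Cd200 (37.9 against 76.2 CPM). Leaving Ly6c2 out, 0.206% of genes were called higher and 0.226% lower, and no other member was called. Ly6c1 was below 20 CPM and so could not be called. It was at 8.99 against 1.20 CPM, from 80 and 6 UMIs. Of the memory and effector CD8 list 2 of 14 tested genes were called higher and 1, Xcl1, lower (median 0.46, against -0.03 over all genes). The 5 natural killer markers summed to 64.0 against 25.5 CPM, and their part in the split was not tested.

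The 1045 lymph node Cd4 cells with Ly6c1 were nearly free of Ccl5, an effector chemokine (1.88 against 360 CPM in the 828 without), and of Nkg7, a cytotoxic granule gene (4.13 against 70.5 CPM). They were higher in Pdlim4 (162 against 82.5 CPM) and, among the members, in Ly6a (668 against 471 CPM). Called genes were 0.0221% higher and 0.221% lower, and no other member was among them. Ly6c2, below 20 CPM and so not open to a call, was at 13.5 against 15.3 CPM.

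The 2053 lymph node Cd8 cells with Ly6c2 were higher than the 735 without in Eomes (60.9 against 21.3 CPM), Plac8 (421 against 164 CPM) and Ccl5 (981 against 389 CPM). They were lower in Tnfrsf4, which encodes the activation receptor OX40 (4.02 against 67.2 CPM), Ctla4, a checkpoint receptor of activated and regulatory cells (42.3 against 204 CPM), and Gzma, the protease granzyme A (6.39 against 54.5 CPM). Here 0.174% of genes were called higher and 2.19% lower, and again no other member. Ly6c1, below 20 CPM and so not open to a call, was at 11.9 against 4.54 CPM, from 166 and 19 UMIs. Of the memory and effector CD8 list 3 of 10 were called higher and 2 lower (median 0.40, against -0.17 over all genes). Cells without Ly6c2 were also higher in Cd74 (137 against 21.7 CPM) and Cd83 (62.7 against 7.89 CPM), genes known from antigen-presenting cells, and their regulatory T markers summed to 293 against 67.0 CPM. The 5 B cell markers summed to 210 against 217 CPM and the 6 dendritic markers, nearly all Bst2, to 299 against 332 CPM. The part of other cells in this split was not tested. The cells with a member's UMI were deeper in all 3 splits, by medians of 5801 against 5138, 4999 against 4347 and 6568 against 5352 UMIs.

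Ly6a and Ly6e were higher in cells with more interferon-response transcripts in each group. Cells with at least 2000 UMIs were ranked by the share of their UMIs from 20 interferon-response genes, none of them a Ly6 gene, and divided into 3 near-equal sets, lowest, middle and highest. This division was chosen after seeing that nearly all cells held 3 or more such UMIs. Only the members were compared between these sets, so their steps have no background of other genes beside them. From the lowest to the highest set Ly6a went from 1192 to 2021 CPM in Tdp cells, from 1665 to 2315 CPM in tumor Cd4 cells and from 651 to 1570 CPM in Tcell cells. In the lymph node it went from 344 to 889 CPM in Cd4 cells, from 499 to 1419 CPM in Treg cells and from 169 to 588 CPM in Cd8 cells. The middle set lay between the others in each of the 6 groups. A single gene, Ifi27l2a, gave 49.8% to 69.7% of the list's UMIs in these groups, so the cells were also ranked without it. Ly6a then went from 1610 to 2312 CPM in tumor Cd4 cells, from 471 to 1472 CPM in Treg cells and from 169 to 573 CPM in lymph node Cd8 cells, and it was higher in the highest than in the lowest set of all 6 groups.

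Ly6e went the same way with smaller steps, for example from 1072 to 1484 CPM in lymph node Cd8 cells and from 1820 to 2005 CPM in tumor Cd4 cells. Ly6c2 went from 2320 to 3056 CPM in Tdp cells and from 670 to 943 CPM in tumor Cd4 cells, and from 976 to 1152 CPM in lymph node Cd8 cells. In lymph node Treg cells it was 80.1, 50.6 and 54.7 CPM in the lowest, middle and highest sets. As 14 cells held 144 of the 170 Ly6c2 UMIs of that group, no direction is read from it. The paralog Ly6c1 went from 249 to 462 CPM in lymph node Cd4 cells but from 152 down to 30.2 CPM in Treg cells. The sets differed little in depth, for example 6852 and 6235.5 UMIs in the lowest and highest sets of Tdp cells.

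**Figure D5:**
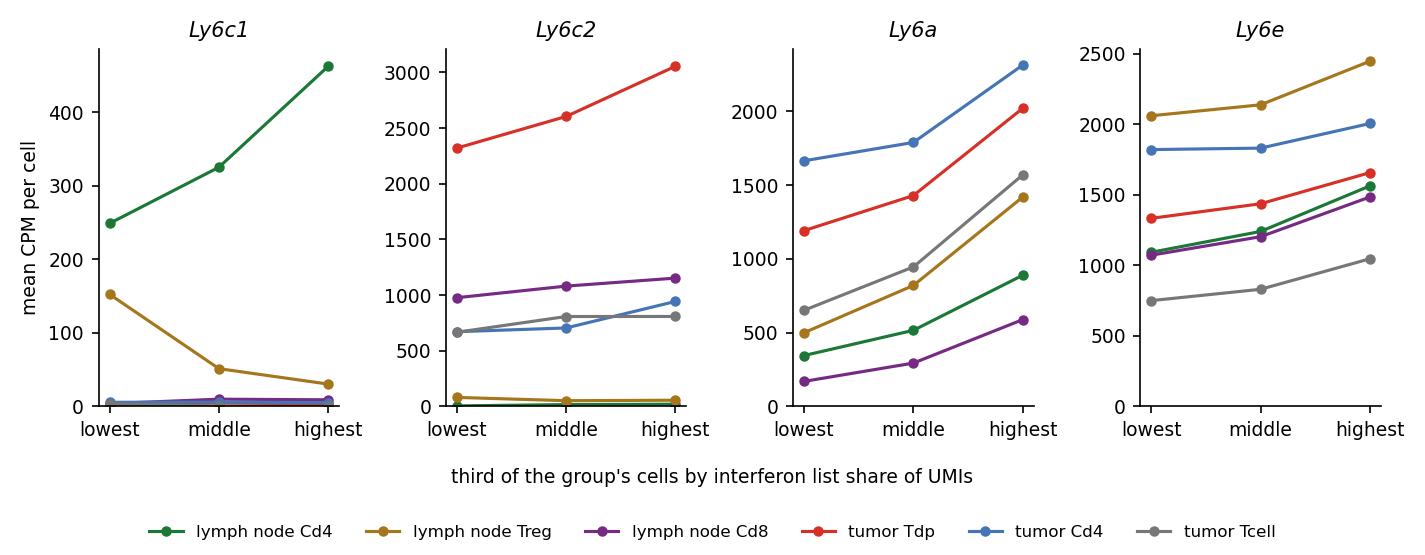
Mean CPM per cell of each gene (linear axes from 0, one scale per panel) in 3 near-equal sets of each labelled group's cells ranked by the share of UMIs from 20 interferon-response genes; each line is 1 group. Ly6a climbs in all 6 groups, for example from 169 to 588 in lymph node Cd8 cells, while Ly6c1 climbs in lymph node Cd4 cells (249 to 462) and drops in Treg cells (152 to 30.2).

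Between labels most of the interferon list did not follow Ly6a. Ifi27l2a, like Ly6a, was higher in tumor Cd4 cells, at 2294 CPM, than in Tdp (1636 CPM) and lymph node Cd4 cells (1849 CPM). Over all 6 groups it did not follow Ly6a, being highest in lymph node Treg cells at 5022 CPM and lowest in Tdp cells. In lymph node Cd8 cells, where Ly6a was lowest, Ifi27l2a was at 2081 CPM. Of the list's 15 tested genes 4 were called higher in Tdp than in tumor Cd4 cells and none lower (median log2 ratio 0.39, against -0.11 over all genes), with Ifit3, an antiviral effector, at 34.1 against 6.34 CPM. From lymph node Cd4 to tumor Cd4 cells, where Ly6a was higher, 6 of 14 were called lower and none higher (median -0.62, against 0.20). In lymph node Cd8 against Cd4 cells 1 of 17 was called higher and none lower. Over all genes, in the same order of comparisons, 1.18%, 14.8% and 2.12% were called higher and 2.33%, 6.27% and 1.43% lower.

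The lists of T cell states had larger counts. Of the memory and effector CD8 genes, 8 of 17 tested were called higher in Tdp than in tumor Cd4 cells, 8 of 10 higher and 1 lower in lymph node Cd8 than Cd4 cells, and 12 of 13 higher in tumor than lymph node Cd4 cells (medians 0.59, 2.82 and 5.24, against -0.11, -0.07 and 0.20 over all genes). Over all genes the shares called higher in these comparisons were 1.18%, 2.12% and 14.8%, and 1.43% were called lower in the lymph node comparison. All 12 naive-cell genes were called lower in tumor than in lymph node Cd4 cells (median -4.45, against 0.20), beside 6.27% of all genes. Igfbp4 was at 1757 CPM in lymph node Cd4 cells and at 0 in all 3 tumor groups. Of the lineage factors, Zbtb7b, which encodes the CD4 factor ThPOK, was at 31.5 CPM in tumor Cd4, 31.0 CPM in lymph node Cd4, 9.35 CPM in Tdp and 2.32 CPM in lymph node Cd8 cells. Runx3, the CD8 counterpart, was at 107, 49.1, 81.4 and 74.7 CPM in the same order.

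The rest of the family was nearly silent. Of 43 genes listed as Ly6/uPAR family 11 were in the table, and 5 reached 5 CPM in any group. One of these, Sp2, is a transcription factor listed by mistake and is no family member. Ly6g5b was at 9.84 CPM in Tdp and 8.78 CPM in tumor Cd4 cells, against 0.222 to 2.10 CPM in the other 4 groups, tumor Tcell cells (1.19 CPM) included. Plaur, the urokinase receptor, ran from 4.73 to 16.7 CPM in the lymph node and was at most 0.220 CPM in the tumor. Ly6k ran from 6.02 to 7.88 CPM in the lymph node and was at most 1.81 CPM in the tumor. Lypd6b was at 7.67 CPM in lymph node Cd4 and 5.19 CPM in lymph node Cd8 cells, but at 0.525 CPM in Treg cells, near the 0.504 CPM of tumor Cd4 cells. The genes that make and attach the GPI anchor on which these proteins depend were even, with 27 of 28 in the table, 8 to 10 of them tested, and none called higher or lower in any comparison of the labelled groups. Pigx, part of the first mannose step, was at 75.9 CPM in Tdp and 93.5 CPM in tumor Cd4 cells.

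The genes most like each member over the 6 groups were named by Pearson's r of log2(CPM + 1) among 2864 genes. The groups share 2 libraries, so the r values are a description. For Ly6c2 these were Ctsw, which encodes cathepsin W (r = 0.99), Epsti1 (0.98), Nkg7 (0.97), Plac8 (0.97) and Tm6sf1 (0.96). Ctsw had 695 CPM in Tdp, 393 in tumor Cd4 and 363 in lymph node Cd8 cells against 60.0 in lymph node Cd4 cells. For Ly6c1 they were Galnt6 (0.99), Tesc (0.99), Tubb2a (0.99), Gimap9 (0.98) and Klhdc2 (0.97), whose ranges were far narrower, as in Galnt6 with 121 CPM in lymph node Cd4 and 61.6 CPM in Tdp cells. For Ly6a they were Sik1, Commd3, Gimap4, Clk3 and Mrps18c (all 0.99), and for Ly6e Rbx1 (0.99), Ubl7, Atg5, Imp4 and Ociad1 (all 0.98 or 0.99).

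Ly6c2 is also a monocyte gene, and Ly6a and Ly6c1 are also endothelial genes, so markers of those cells were measured in each group. Of 9 monocyte and macrophage markers, 8 were below 5 CPM in each tumor group, with Adgre1 at 0 and Lyz2 at no more than 3.58 CPM. The exception was Ccr2, which T cells also express, at 170 CPM in Tdp, 151 CPM in tumor Cd4 and 0.445 CPM in lymph node Cd4 cells. The summed list ran from 155 to 173 CPM in the tumor and from 1.33 to 50.9 CPM in the lymph node. Of the endothelial markers Cdh5, Kdr and Flt1 were at or below 0.222 CPM in all groups, and Pecam1 ran from 28.5 to 51.7 CPM in the lymph node and from 3.57 to 12.2 CPM in the tumor. Without the 378 tumor and 1230 lymph node cells that held a marker of another cell type, the Ly6c2 ratios were 1.74 in the tumor, 6.72 in the lymph node and 6.26 between the Cd4 groups.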

How the data were processed

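The authors deposited 1 table of raw UMI counts per gene and cell and an annotation table of other values (cell labels and receptor calls), made with Cell Ranger 3.1.0 against mm10, per the submitters' processing notes. The sources used here do not give how reads shared by Ly6c1 and Ly6c2 were counted, or how cells were filtered or labelled. From the deposited counts, UMIs were summed per library and label and divided by the total (CPM), with Python 3.11.15, numpy 2.4.6, pandas 2.3.3 and scipy 1.17.1. A tumor group held the labelled cells in which the commonest tumor receptor's alpha or beta chain was called. No further cell filter and no doublet caller was used. Levels carry exact Poisson intervals, shares Clopper-Pearson intervals and ratios exact conditional intervals, all at 95%. UMIs share a library, so these cover counting error only. A count of 0 allows up to 3 counts. Background calls need 20 CPM in either group and a 2-fold ratio with a pseudocount of 1 CPM. Receptor segments, and in label comparisons Cd4, Cd8a and Cd8b1, were left out of these calls. Shares at 2000 UMIs are hypergeometric expectations, and means per cell use cells with 2000 UMIs or more. Splits by 1 further gene are not reported here. The upstream stretches were aligned with Biopython 1.88. The calls, intervals and thinned shares were tested on simulated data. The alternatives are another scaling (edgeR 4.0.16 TMM in R 4.3.3), other totals, other cell sets and other call rules. Named genes are the members, family genes at 5 CPM or more, the 5 genes most like each member (among those with 50 CPM and 100 UMIs), list examples with the highest or lowest ratio and, chosen after their values were seen, the other genes named beside them. The members and lists were chosen with earlier results of these data known.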

Additional observations from a re-analysis of the deposited data

How the results depend on the processing

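Of 92 alternative values of the 12 ratios of the members (4 genes in 3 comparisons: Tdp over tumor Cd4, lymph node Cd8 over Cd4, and tumor over lymph node Cd4), 68 stayed within the main counting interval, 24 left it and none of the called ratios changed sign. Using all labelled cells left all 8 ratios inside, and so did leaving out barcodes found in both libraries for all 12, an alternative chosen after seeing the data. In the tumor comparison, TMM scaling gave 1.84 for Ly6c2, -0.21 for Ly6a and -0.24 for Ly6e, per-cell means gave 1.78 for Ly6c2, leaving out the deepest cells gave 1.78 for Ly6c2, and classes by coreceptor UMIs gave -0.071 for Ly6c1 and -0.38 for Ly6a. In the lymph node, TMM gave -0.70 for Ly6a and turned Ly6e, not called, to 0.0099. There, per-cell means gave -5.54 and leaving out the deepest cells -5.99 for Ly6c1. Classes by UMIs gave -4.29 for Ly6c1, 6.79 for Ly6c2, -0.88 for Ly6a and -0.19 for Ly6e, and leaving out cells with markers of other cell types gave 6.72 for Ly6c2. Between the Cd4 groups, TMM gave 1.60 for Ly6a and 0.41 for Ly6e, totals without receptor, mitochondrial and ribosomal protein genes gave 5.55 for Ly6c2, 1.40 for Ly6a and 0.22 for Ly6e, classes by UMIs gave 6.31 for Ly6c2 and 0.43 for Ly6e, and leaving out marker-bearing cells gave 6.26 for Ly6c2. The cause was not tested. The number of called genes changed with the call rule, since the CPM minimum sets how many genes are tested and a larger pseudocount shrinks ratios. With no CPM minimum it was 533, 556 and 2409 for the same 3 comparisons, 1886 for Tdp against lymph node Cd8 and 1889 for the libraries, against 169, 161, 1082, 801 and 829. With 50 CPM it was 92, 71, 623, 467 and 479. A pseudocount of 10 gave 110 and 107 for the first pair. Ranking cells by the interferon list without Ifi27l2a, an alternative chosen after seeing the data, kept Ly6a and Ly6e higher in the highest than in the lowest set of all 6 groups. Thinning to 2000 UMIs lowered all 8 shares of cells with Ly6c1 or Ly6c2, from 55.8% to 38.5% for Ly6c1 in lymph node Cd4 cells and from 98.8% to 95.3% for Ly6c2 in Tdp cells. No paired analysis was possible because each tissue has 1 gene expression library. For the same reason no replicate could be left out. Depth limits Ly6c1 in the tumor, where 65 and 86 UMIs stand behind the Tdp and Cd4 levels.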
